A study of Mus musculus with 14 samples.

Results

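The comparison described here sets mouse CD4+ T cells that made interferon-gamma in the presence of a DOT1L inhibitor against cells of the same kind exposed to the inactive control compound. It uses 6 of the 14 RNA sequencing libraries of the series, 3 for each compound, and all 22048 protein-coding genes of the deposited count table, of which 12343 had enough counts to be tested. All cells came from spleen and peripheral lymph nodes of C57BL/6 mice that carry a YFP reporter of the cytokine gene Ifng. CD4+ T cells were enriched, with no sort for naive cells named in the labels, and kept for 4 days on plate-bound antibodies to CD3 and CD28 with IL-2, IL-12 and an antibody that neutralizes IL-4, a mixture that drives the Th1 fate. During the culture either SGC0946, the inhibitor, or SGC0649, the control compound, was present at 1 µM, and CD4+ YFP-positive (YFPpos) cells were then sorted. The series design describes the 3 libraries of a group as biological replicates, but no label ties them to separate animals. The p-values below rest on the spread between libraries within groups, estimated from all 14 libraries in 1 fit. Whether it is a spread between animals is not known. The 14 include 3 libraries of naive cells, listed without a compound or a day of culture. These also entered the count filter and the estimate of spread. A pooled enrichment of CD4+ cells can hold memory and regulatory T cells beside naive ones. The labels give neither age nor sex of the mice, and a culture without compound was not analysed here. YFP-negative (YFPneg) cells of the same kind of culture, 2 libraries with SGC0649 and 3 with SGC0946, are used at the end for comparison.

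DOT1L is the methyltransferase that places methyl groups on lysine 79 of histone H3, a mark found along the bodies of transcribed genes, and it works in association with elongation factors of the MLLT and AFF families. In leukaemias with MLL fusions the enzyme is required for the expression of HOXA genes, which is why inhibitors such as SGC0946 were made. Th1 cells are the helper T cells that defend against intracellular microbes. Their master regulator is T-bet, encoded by Tbx21, and interferon-gamma is their signature cytokine.

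Library totals, in units of 1e+06 counts, were 20.7 to 22.97 with SGC0649 and 21.8 to 31.6 with SGC0946. Cd3d, Cd3e, Cd3g, Cd4 and the other T cell markers in the table summed to 3007 to 3511 counts per 1e+06 counts of the library (CPM) with SGC0649 and 3335 to 3440 CPM with SGC0946. Of 10 B cell markers 10 were under 1 CPM on average with SGC0649 and 9 with SGC0946, 6 erythroid markers were at or near 0 in both groups, and S100a8, S100a9, Clec9a, Cd209a, Xcr1 and Siglech, which define neutrophils and dendritic cells, were at 0 in all 6 libraries. The summed level of 7 NK cell markers was 3.82 to 8.07 CPM with SGC0649 and 11.6 to 13.4 CPM with SGC0946, that of 15 myeloid markers 5.24 to 6.21 and 9.85 to 10.4 CPM, and that of the B cell markers 1.58 to 1.86 and 3.26 to 3.73 CPM. Of the tested members of these lists Klre1 and Klri2, Itgam and Flt3, and Ebf1 were called higher. Both CD8 markers were not called, nor were 4 sex-linked genes, and 1 of 13 mitochondrially encoded genes, mt-Nd6, was. The part of such cells in the results was not tested. SGC0946 replicate 2 had 3.61% unmapped reads, against 6.44% to 8.35% in the other 5 libraries.

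The inhibitor changed a large part of the transcriptome of interferon-gamma producers, and changes of at least 2-fold were mostly increases. By edgeR's quasi-likelihood test with Benjamini-Hochberg adjustment over all tested genes, 3424 genes (27.7% of 12343) passed an adjusted p of 0.05, 1490 higher (12.1%) and 1934 lower (15.7%) with SGC0946. Their sizes differed by direction. Among the increases 605 were at least 2-fold and the median log2 fold change was 0.77, whereas 67 decreases were at least 2-fold and the median was -0.33. The median over all tested genes was -0.04. The split between modest increases and decreases depended on the scaling: the higher share of the calls was 43.5% with the TMM factors used here and 55.1% with DESeq2 size factors, which gave 1702 higher and 1388 lower genes and a median of 0.01, while the calls of at least 2-fold stood at 629 higher and 62 lower. Increases also outnumbered decreases by DESeq2 (1820 and 1575), without a filter on low counts (1590 and 1448) and with only the 6 YFPpos libraries in the fit (2584 and 2167). The number of calls rested in part on single libraries, since it was 1886 without SGC0649 replicate 3 and 2004 without SGC0946 replicate 2.

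**Figure D1:**
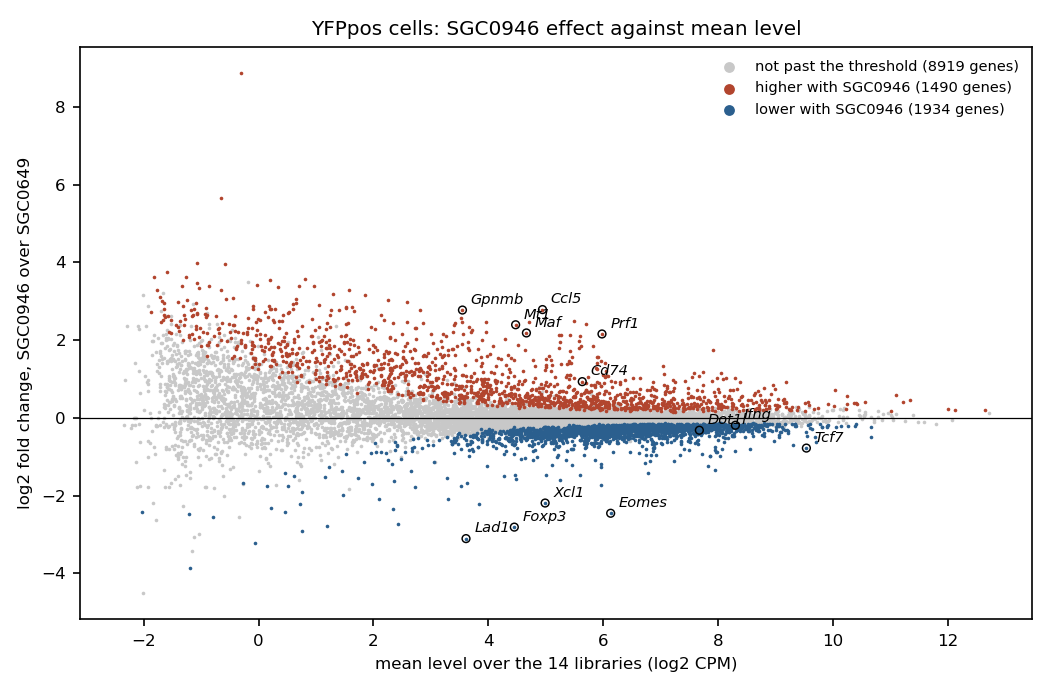
Log2 fold change of SGC0946 over SGC0649 (vertical axis) against the mean level over the 14 libraries in log2 CPM (horizontal axis), 1 point per tested gene. Red points are the 1490 genes past the threshold that were higher with SGC0946, blue points the 1934 that were lower; some genes named in the text are circled, such as Foxp3 and Eomes below and Ccl5 and Prf1 above the line at 0.

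The gene of the inhibitor's target was measured first. Dot1l stood at 213, 220.1 and 229.5 CPM with SGC0649 and at 169.7, 183 and 178 CPM with SGC0946. All 3 inhibitor libraries were below the 3 control libraries, and the change was small (log2 fold change -0.32, SE 0.07, adjusted p 0.0020). SGC0946 blocks the enzyme's activity, so this transcript does not measure how far methylation was lost, which these files do not hold. The cytokine behind the sort, Ifng, stood at 671, 611 and 929 CPM with SGC0649 and at 701, 533 and 701 CPM with SGC0946. These groups overlapped, and the log2 fold change of -0.19 had a 95% interval of -0.79 to 0.41. Since cells were selected by the reporter of this gene, its level is partly set by the sort. Tbx21 was at 297, 286 and 258 CPM with SGC0649 and at 322, 332 and 314 CPM with SGC0946, without overlap (log2 fold change 0.20, SE 0.06, adjusted p 0.017). Tbx21 passed the threshold neither without SGC0649 replicate 3 nor without SGC0946 replicate 2, and its adjusted p ranged from 0.0011 to 0.10 over the alternatives.

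Among regulators of helper T cell fates, Foxp3, Eomes, Gata3 and Stat4 fell and Maf and Prdm1 rose. Foxp3, which defines regulatory T cells, stood at 11.9, 15.7 and 21.1 CPM with SGC0649 and at 2.40, 2.22 and 2.30 CPM with SGC0946. The 3 inhibitor libraries were alike and far below every control library, a 7.03-fold lower level (log2 fold change -2.81, SE 0.25, adjusted p 1.1e-06). In RNA from sorted populations, fewer Foxp3-expressing cells and less Foxp3 RNA per cell cannot be told apart. Eomes, the T-box factor that is close to T-bet and supports cytotoxic and memory programmes, stood at 75.6, 112 and 165 CPM with SGC0649 and at 18.8, 19.6 and 25.4 CPM with SGC0946. It varied between control libraries but did not overlap with the inhibitor group, where it was 5.49-fold lower (log2 fold change -2.46, SE 0.24, adjusted p 3.7e-06). Maf, a factor that promotes IL-10 and IL-21, was at 15.8, 12.5 and 13.97 CPM with SGC0649 and at 72.7, 62.2 and 57.5 CPM with SGC0946 (log2 fold change 2.18, SE 0.15, adjusted p 1.2e-07), with a gap between the groups. Prdm1, which encodes the terminal effector regulator Blimp-1, was at 37.7, 26.4 and 13.2 CPM with SGC0649 and at 82.4, 106 and 78.1 CPM with SGC0946 (log2 fold change 1.79, SE 0.24, adjusted p 6.4e-05). Gata3, the Th2 regulator, had a log2 fold change of -0.51, SE 0.13, and Stat4, the signal transducer of IL-12, -0.47, SE 0.09; both fell, though the adjusted p of Gata3 was 0.051 without SGC0946 replicate 3 (0.0060 to 0.051 over the alternatives). Runx3, a partner of T-bet, had 0.05 (95% interval -0.07 to 0.18), and Bcl6, the regulator of follicular helper cells, 0.35 (-0.04 to 0.73); neither passed the test.

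**Figure D2:**
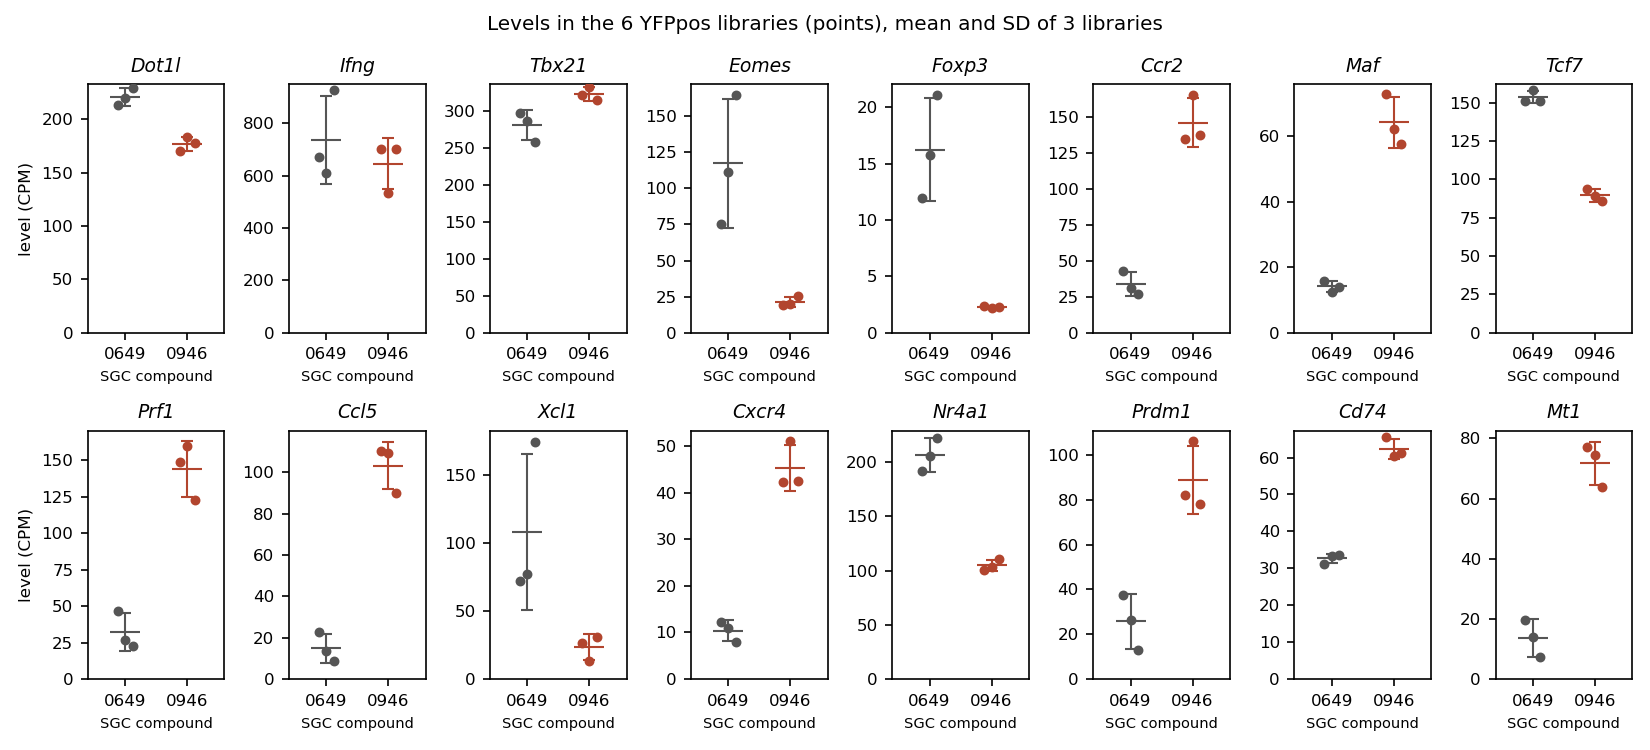
Level in CPM (vertical axes, from 0) of 16 genes in the 6 YFPpos libraries, SGC0649 in grey and SGC0946 in red, with the mean and SD of 3 libraries. The groups of Ifng overlap, while Eomes, Foxp3, Tcf7, Xcl1 and Nr4a1 are lower and Ccr2, Maf, Prf1, Ccl5, Cxcr4, Prdm1, Cd74 and Mt1 higher in all 3 inhibitor libraries.

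The Th1 programme did not move in one direction. Of its 30 genes 11 were higher and 8 lower, against 12.1% and 15.7% of all tested genes. The median log2 fold change was 0.07, against -0.04 over all tested genes. The higher count fell to 7 without SGC0946 replicate 2. Ccl5, the chemokine RANTES made by effector and memory T cells, stood at 22.6, 13.7 and 8.65 CPM with SGC0649 and at 110.2, 109 and 90.1 CPM with SGC0946 and rose 6.89-fold (log2 fold change 2.78, SE 0.26, adjusted p 2.5e-06), the largest increase where the mean log2 CPM reached 3 and the groups did not overlap. Hlx, a homeobox factor that works with T-bet, rose (1.65, SE 0.28). Xcl1, which attracts cross-presenting dendritic cells, stood at 72.2, 77.5 and 174 CPM with SGC0649 and at 26.6, 12.95 and 31.1 CPM with SGC0946 (log2 fold change -2.19, SE 0.31, adjusted p 0.00012), so that the highest inhibitor library was below the lowest control library. Cxcr3, the receptor that guides Th1 cells into inflamed tissue, was lower (log2 fold change -1.38, SE 0.28, adjusted p 0.0018). Il12rb1, a chain of the IL-12 receptor, was higher (0.50, SE 0.09).

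Genes of other helper fates were mixed too. The counts below stand against 12.1% higher and 15.7% lower over all tested genes. Among 15 tested Th2 genes 5 were higher and 5 lower. Maf, Ccr3 (2.52), the receptor for eotaxins, and Il10 (1.64), the inhibitory cytokine, were among the higher ones, and Gata3 and Il13 (-1.77), a Th2 cytokine at 0.845 to 5.40 CPM, among the lower ones. The call of Il13 was lost in 2 of 13 alternatives (highest adjusted p 0.083). Among 16 genes of regulatory T cells, 5 fell, Foxp3, Lrrc32 (-1.48, SE 0.20), which presents latent TGF-beta on the cell surface, Gpr83, Izumo1r and Ikzf4. The 4 that rose, Entpd1 (2.01, SE 0.24), which encodes the ectonucleotidase CD39, Tigit (2.82-fold higher), Il10 and Ctla4 (0.46, SE 0.09), are also expressed by activated effector cells. Of 11 Th17 genes 4 rose, among them the cytokine gene Il21 (1.33, SE 0.16), Rora (1.01, SE 0.15) and Il1r1, the IL-1 receptor, at 0.216 to 1.26 CPM with SGC0649 and 1.78 to 2.94 CPM with SGC0946. The call of Il1r1 was lost in 2 of 13 alternatives (highest adjusted p 0.058). Il21 itself stood at 103, 90.97 and 65.4 CPM with SGC0649 and at 230.2, 195 and 225 CPM with SGC0946. Of 13 follicular helper genes 2 were higher and 3 lower, not far from the shares over all tested genes. Il6st (-0.82, SE 0.05), the signalling chain of the IL-6 receptor, was among the lower ones.

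Cytotoxic genes shifted unevenly. Prf1, which encodes the pore-forming protein perforin, stood at 47.00, 27.1 and 22.6 CPM with SGC0649 and at 149, 159.9 and 123 CPM with SGC0946, a rise of 4.46-fold (log2 fold change 2.16, SE 0.19, adjusted p 1.2e-06), with a wide gap between the groups. Gzmb, the main granzyme of these cells, went from 3610.3 ± 124 CPM with SGC0649 to 4921 ± 233 CPM with SGC0946 (mean ± SD, n = 3 each), a smaller rise (log2 fold change 0.45, SE 0.11, adjusted p 0.0059). Of 22 tested granule and cytotoxic genes 5 were higher, among them Cst7 (0.69, SE 0.13), an inhibitor of granule cathepsins, and Srgn (0.41, SE 0.08), the proteoglycan core of granules. The 3 lower genes were Serpinb9 (-0.71, SE 0.13), which protects the cell from its own granzyme B, Serpinb6b and Fasl, the ligand of the death receptor Fas. Both counts stand against 12.1% higher and 15.7% lower over all tested genes. With only the 6 YFPpos libraries in the fit the higher count was 11.

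Receptor genes shared with NK cells changed in both directions. Of 16 tested genes 7 rose and 3 fell, where 12.1% of all tested genes were higher and 15.7% lower. The higher ones were lectin receptors of the NK gene complex, with Klrc1 (1.58, SE 0.27), the inhibitory receptor NKG2A, at 86.9, 47.3 and 44.2 CPM with SGC0649 and at 174, 173 and 185 CPM with SGC0946. Klrc2 (1.80), Klrd1, Klra3 (2.32), Klre1, Klri2 and Klrk1 (1.10), the activating receptor NKG2D, were the others. The higher count was 4 without SGC0946 replicate 2, Klrk1 missed the threshold by DESeq2 (adjusted p 0.071, against 0.00034 to 0.071 over the alternatives), and Klrc1, Klrc2 and the Klra genes have close relatives between which reads may be split. Klra3 lost its call without SGC0946 replicate 2 (adjusted p 0.051, the highest over its alternatives), and Klre1 and Klri2 lost theirs in 5 alternatives each (highest 0.10 and 0.17). Klre1 and Klri2 are also among the 7 NK cell markers, whose summed level was 3.82 to 8.07 CPM with SGC0649 and 11.6 to 13.4 CPM with SGC0946. Of the other 5 markers, Klra7 was at 0.215 to 0.596 CPM over the 6 libraries, and Ncr1, Klrb1c, Klra4 and Klra8 were at most at 0.174 CPM. The part of NK cells in this result was not tested. The 3 lower receptors were Crtam, the adhesion receptor of cytotoxic T cells, Cd226, the activating counterpart of TIGIT, and Cd160, all of the immunoglobulin superfamily, as is Tigit, which rose 2.82-fold and stands in another list. Crtam stood at 50.7, 69.2 and 112 CPM with SGC0649 and at 28.1, 19.3 and 29.4 CPM with SGC0946 (log2 fold change -1.59, SE 0.22, adjusted p 8.8e-05). Cd226 stood at 4.43, 5.88 and 7.53 CPM with SGC0649 and at 1.82, 2.54 and 1.96 CPM with SGC0946 (log2 fold change -1.49, SE 0.23, adjusted p 0.00020). In both genes the highest inhibitor library was below the lowest control library.

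Inhibitory receptors, transcription factors and other genes associated with exhausted T cells, taken as 1 list, also moved both ways. The falls included the factor genes Tox, Nr4a1, Nr4a2 and Nr4a3. Higher were Entpd1, Tigit, Havcr2 (1.18, SE 0.25), which encodes TIM-3, Lag3 (0.72, SE 0.15), Ctla4 and Cd101. Lower were Tox, Btla, Cd160, Cd200, Nr4a1, Nr4a2 and Nr4a3. The totals were 6 and 7 of 17, against 12.1% and 15.7% of all tested genes. Pdcd1, which encodes PD-1, had 0.04 (95% interval -0.15 to 0.22) and did not pass the test. Tox, the factor required for exhaustion, was at 11.8, 12.7 and 13.8 CPM with SGC0649 and at 5.65, 6.95 and 5.43 CPM with SGC0946 (log2 fold change -1.09, SE 0.13, adjusted p 2.5e-05).

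Chemokine receptors changed in 10 of 13 tested genes, where 27.7% of all tested genes were called, 12.1% higher and 15.7% lower. Cxcr4, the receptor for the bone marrow chemokine CXCL12, stood at 12.3, 11.04 and 7.96 CPM with SGC0649 and at 42.3, 51.1 and 42.6 CPM with SGC0946, a rise of 4.35-fold (log2 fold change 2.12, SE 0.16, adjusted p 1.9e-07). Ccr2, which guides cells to inflamed sites, was at 43.1, 31.1 and 26.8 CPM with SGC0649 and at 135, 165 and 137 CPM with SGC0946 (log2 fold change 2.11, SE 0.17, adjusted p 6.2e-07). These inhibitor libraries were all at least 3 times as high as the controls. Ccr1 (2.92), Ccr3 and Cxcr6 (0.81) were also higher, and Ccr4, Ccr7, Ccr8 and Cxcr3 were lower. These counts were the same in every alternative, except that 3 rather than 4 were lower without SGC0649 replicate 3. Ccr7, the lymph node homing receptor, went from 629.8 ± 29.7 CPM with SGC0649 to 390.2 ± 35.8 CPM with SGC0946 (log2 fold change -0.69, SE 0.06, adjusted p 2.1e-06). Among 10 chemokines Ccl5, Ccl4 (0.51, SE 0.12) and Cxcl10 (1.07, SE 0.24) were higher, and Xcl1 and Ccl1 (-2.91, SE 0.62) lower. Ccl1 lost its call without SGC0649 replicate 3, the library in which it was highest (adjusted p 0.057; 0.00027 to 0.057 over the alternatives).

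Genes induced early by T cell receptor signals fell more often than they rose. Of 28 genes 14 fell and 5 rose, with a median log2 fold change of -0.28, against 15.7% and 12.1% of all tested genes and a median of -0.04. Nr4a1, the orphan nuclear receptor Nur77 that reports antigen receptor signals, stood at 192, 205 and 223 CPM with SGC0649 and at 101, 103 and 111 CPM with SGC0946 (log2 fold change -0.98, SE 0.07, adjusted p 1.2e-07). Its relative Nr4a3 was at 222, 269 and 338 CPM with SGC0649 and at 121, 104 and 125 CPM with SGC0946 (log2 fold change -1.24, SE 0.13, adjusted p 8.2e-06). The activation marker Cd69 was at 73.1, 90.1 and 121 CPM with SGC0649 and at 44.9, 39.8 and 46.9 CPM with SGC0946 (log2 fold change -1.11, SE 0.15, adjusted p 7.2e-05). None of these groups overlapped. The early growth response gene Egr1 fell less (-0.34, SE 0.07). Ier3 (1.34, SE 0.15), a stress-inducible survival gene, rose, and so did Tnfaip3 (0.37, SE 0.07), which encodes the NF-kappaB inhibitor A20. The lower count was 9 without SGC0649 replicate 3. The signalling machinery itself was divided, with 7 of 28 genes higher, such as the scaffold protease gene Malt1 (0.70, SE 0.09) and the chain Cd3g (0.46, SE 0.08), and 9 lower, such as the kinase gene Fyn (-0.44, SE 0.05), the co-receptor genes Cd6 (-0.44, SE 0.05) and Cd5 (-0.32, SE 0.06), and the Ras activator gene Rasgrp1 (-0.48, SE 0.07).

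In lists of the TNF family, the IL-2 axis, NF-kappaB and TGF-beta signalling, falls outnumbered rises, as they did over all tested genes with this scaling (15.7% against 12.1%). Of 24 TNF superfamily genes 10 fell and 2 rose. Tnfsf8, the ligand of CD30, stood at 248, 338 and 422 CPM with SGC0649 and at 130.3, 115 and 150.3 CPM with SGC0946 (log2 fold change -1.35, SE 0.15, adjusted p 1.5e-05), while Tnfrsf8, which encodes CD30 itself, stood at 30.1, 25.9 and 26.4 CPM with SGC0649 and at 129, 120.3 and 109 CPM with SGC0946 (log2 fold change 2.12, SE 0.29, adjusted p 0.00012). Ligand and receptor thus moved in opposite directions, each without overlap. Tnfsf4, the ligand OX40L (-1.01, SE 0.13), Tnfsf14, the ligand LIGHT (-0.94, SE 0.13), and Lta, the lymphotoxin gene (-0.92, SE 0.22), also fell. In the IL-2 axis 6 of 17 genes fell and 0 rose by edgeR's quasi-likelihood test, while 3 were higher at an unadjusted p under 0.05, 3 by DESeq2, 2 by limma-voom and 4 with only the 6 YFPpos libraries in the fit. Stat5a (-0.44, SE 0.07) and Stat5b (-0.36, SE 0.05), the signal transducers of the IL-2 receptor, and Pim2 (-0.68, SE 0.06), a kinase induced by them, were among those that fell. Il2 itself, at 1.19 to 5.93 CPM in cells cultured with added IL-2, kept its call in only 4 of 13 alternatives (adjusted p 0.049; 0.020 to 0.31). In the NF-kappaB pathway 6 of 23 genes fell, with Nfkb1 (-0.59, SE 0.06) and Rel (-0.44, SE 0.08), the genes of p105 and c-Rel, and 2 rose, together a share not far from the 27.7% called over all tested genes. Of 17 tested genes of TGF-beta receptors and Smads 6 fell, including Smad3 (-0.60, SE 0.08) and Tgfbr1 (-0.56, SE 0.13), and 3 rose, including the ligand gene Tgfb3 (1.23, SE 0.23) and Ltbp3 (2.77, SE 0.59), which binds the latent ligand.

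Genes of naive and resting T cells divided into equal numbers. Of 26 genes 9 rose and 9 fell, against 12.1% and 15.7% of all tested genes. Tcf7, which encodes TCF1, a factor of naive and memory cells, stood at 151, 158 and 151 CPM with SGC0649 and at 93.9, 88.8 and 85.8 CPM with SGC0946 (log2 fold change -0.78, SE 0.07, adjusted p 1.1e-06). Bach2, a repressor of effector genes, was at 229, 229 and 241 CPM with SGC0649 and at 137, 125 and 136 CPM with SGC0946 (log2 fold change -0.81, SE 0.07, adjusted p 8.1e-07). Foxp1, which keeps T cells quiescent, went from 183 ± 18.6 CPM with SGC0649 to 96.00 ± 4.71 CPM with SGC0946 (log2 fold change -0.93, SE 0.07, adjusted p 1.9e-07). The libraries of each group lay close together in all of these genes. Lef1, the partner of TCF1, fell as well (-0.50, SE 0.06). On the higher side were S1pr1 (0.95, SE 0.11), the receptor that lets T cells leave lymphoid tissue, Il7r (0.73, SE 0.18), which encodes the IL-7 receptor, Klf2 (0.66, SE 0.17), which drives S1pr1, and Btg2 (0.34, SE 0.06), which opposes proliferation. The call of Klf2 was lost without SGC0946 replicate 2 (adjusted p 0.057, the highest over the alternatives). The number of lower genes was 9 in every alternative.

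**Figure D3:**
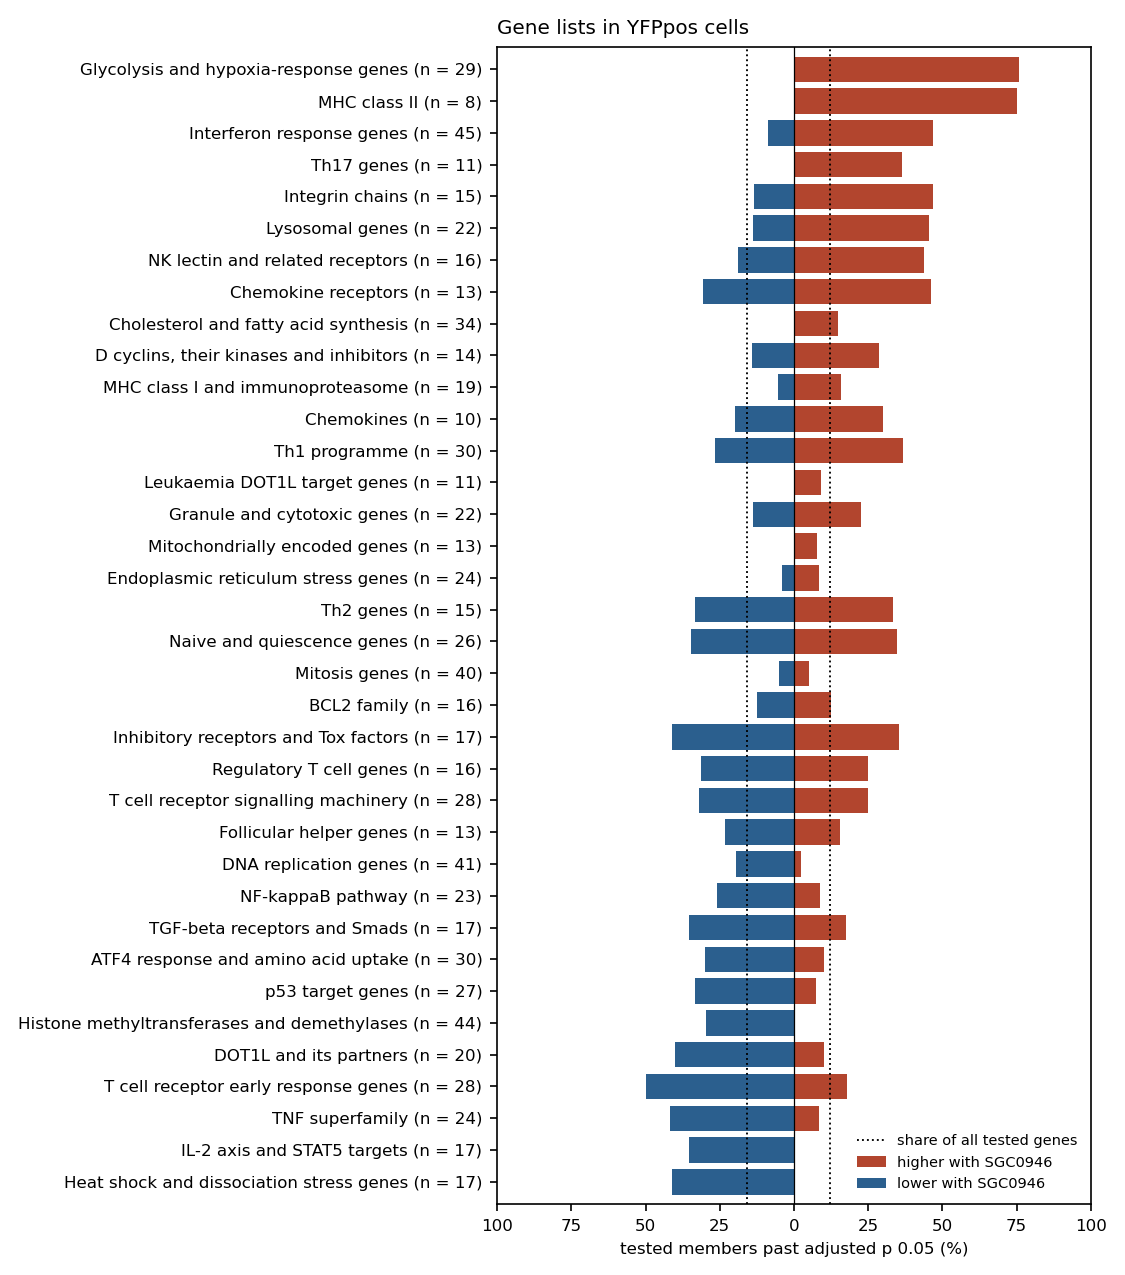
Share of the tested members of each gene list with at least 8 tested members (vertical axis, with the number tested) that passed an adjusted p of 0.05, higher with SGC0946 to the right and lower to the left, in percent. Dotted lines mark the shares over all tested genes, 12.1% higher and 15.7% lower; glycolysis and MHC class II genes lie at the top with no lower member and heat shock genes at the bottom with no higher member by this test, though 1 was higher by DESeq2 and by limma-voom.

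Interferon-induced genes were higher more often than lower. Of 45 tested genes 21 rose and 4 fell, with a median of 0.27, against 12.1% and 15.7% of all tested genes and a median of -0.04; the higher count ranged from 12 without SGC0946 replicate 2 to 26 with only the 6 YFPpos libraries in the fit. Gbp6 and Gbp4 encode guanylate-binding proteins, GTPases that attack vacuoles of intracellular microbes. Gbp6 stood at 23.9, 24.5 and 24.3 CPM with SGC0649 and at 50.99, 61.1 and 44.6 CPM with SGC0946 (log2 fold change 1.11, SE 0.09, adjusted p 7.7e-07). Gbp4 was at 289, 270.1 and 252 CPM with SGC0649 and at 505, 543 and 474 CPM with SGC0946 (log2 fold change 0.91, SE 0.08, adjusted p 1.6e-06). Gbp genes are close relatives, so that reads may be split between them, and the groups of both were far apart. Cmpk2 (1.82, SE 0.23), a nucleotide kinase in the antiviral response, and Oas3 (0.97, SE 0.13), an RNA sensor, rose with Isg15 (0.63, SE 0.16), a ubiquitin-like protein. Irf8 (-0.31, SE 0.06), Samd9l (-0.59, SE 0.12), Iigp1 and Ifit2 were the 4 lower members. Of these Iigp1 and Ifit2 lost their calls in 2 and 7 of 13 alternatives (highest adjusted p 0.10 and 0.089).

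Genes of antigen presentation on MHC class II, which mouse T cells express at a very low level, rose in 6 of 8 cases with a median of 1.85. Over all tested genes 12.1% were higher. Cd74, the invariant chain that escorts class II molecules, stood at 31.2, 33.2 and 33.7 CPM with SGC0649 and at 65.5, 60.4 and 61.1 CPM with SGC0946 (log2 fold change 0.93, SE 0.12, adjusted p 4.6e-05). H2-Ab1, a beta chain, was at 15.9, 12.9 and 7.87 CPM with SGC0649 and at 49.7, 54.8 and 44.1 CPM with SGC0946 (log2 fold change 2.02, SE 0.21, adjusted p 6.7e-06). Both were higher in every inhibitor library. H2-Aa was at 1.22, 1.29 and 1.08 CPM with SGC0649 and at 7.16, 8.62 and 8.35 CPM with SGC0946 (log2 fold change 2.75, SE 0.52, adjusted p 0.0012), and H2-Eb1 at 1.08, 1.00 and 1.17 CPM with SGC0649 and at 4.71, 5.76 and 6.11 CPM with SGC0946 (log2 fold change 2.34, SE 0.39, adjusted p 0.00044). Ciita, the coactivator that switches on the class II genes, rose from below 1 CPM to 2.36 to 3.02 CPM (1.89, SE 0.49); its adjusted p was 0.054 without SGC0649 replicate 2 (0.00073 to 0.054 over the alternatives). The count of higher members ranged from 4 to 8 over the alternatives. Cells that carry class II at high levels are B cells, dendritic cells and macrophages, and the summed levels of their markers were higher with SGC0946 as well, 3.26 to 3.73 against 1.58 to 1.86 CPM for 10 B cell markers and 9.85 to 10.4 against 5.24 to 6.21 CPM for 15 myeloid and dendritic markers. Of these Ebf1, an early B cell factor, at 0.564 to 0.860 CPM with SGC0649 and 2.27 to 2.85 CPM with SGC0946, the integrin gene Itgam, at 0.346 to 1.91 and 5.003 to 6.09 CPM, and Flt3 were called higher, and Vpreb3, at 0.130 to 0.391 and 0.460 to 0.578 CPM, was higher in every inhibitor library. Ms4a1, which encodes CD20, was at 0 to 0.0865 CPM with SGC0649 and at 0 with SGC0946, and Clec9a, Xcr1, Siglech and Cd209a were at 0 in all 6 libraries. The part of such cells in the class II result was not tested. In MHC class I and immunoproteasome genes 3 of 19 rose, near the 12.1% over all tested genes, namely H2-Q6 (1.02, SE 0.12), H2-Q7 and H2-T23, whose sequences resemble one another and of which H2-Q7 and H2-T23 each lost the call in 2 alternatives (highest adjusted p 0.082 and 0.089), and Erap1, the peptidase that trims peptides, fell (-0.37, SE 0.06).

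Since these class II genes moved together, the 250 bases before the RefSeq transcription start of H2-Aa (chr17:34287824-34288073, minus strand) and H2-Eb1 (chr17:34305617-34305866, plus strand, GRCm38.p6) are shown. The letters in capitals mark ATTGG or its reverse complement CCAAT, the core of the Y box at which NF-Y binds beside the X box that recruits CIITA.
H2-Aa: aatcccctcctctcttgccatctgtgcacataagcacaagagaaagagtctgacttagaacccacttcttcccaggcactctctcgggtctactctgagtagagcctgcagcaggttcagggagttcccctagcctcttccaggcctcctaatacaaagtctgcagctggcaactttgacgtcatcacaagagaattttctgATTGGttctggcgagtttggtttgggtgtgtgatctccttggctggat
H2-Eb1: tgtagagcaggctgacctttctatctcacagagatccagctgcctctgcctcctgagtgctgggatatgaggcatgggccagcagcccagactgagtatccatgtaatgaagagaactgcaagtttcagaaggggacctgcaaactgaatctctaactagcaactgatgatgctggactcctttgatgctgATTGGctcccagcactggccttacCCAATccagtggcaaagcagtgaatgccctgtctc
The match in H2-Aa began 48 bases before the start, and those in H2-Eb1 59 and 35 bases before it. Searched on both strands in windows of the same length, ATTGG was present in 1 or more promoters of 37.5% of 27025 RefSeq genes of the mouse, of 40.6% of 9413 tested genes with an entry and of 5 of the 5 class II genes with an entry, and in 33.8% of all 32851 promoters. Such a short match is a description of these windows.

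Genes of glycolysis and the hypoxia response were higher wherever they passed the test. Of 29 tested glycolysis and hypoxia-response genes 22 rose and 0 fell by edgeR's quasi-likelihood test, and 17 to 25 rose and 0 fell over the alternatives, DESeq2 and limma-voom included. At an unadjusted p under 0.05 the lower count was 0 as well. Over all tested genes 12.1% were higher and 15.7% lower. The median log2 fold change of the list was 0.33, so most steps changed modestly. Slc2a3, the glucose transporter GLUT3, stood at 196, 154 and 98.6 CPM with SGC0649 and at 313, 425 and 276 CPM with SGC0946 (log2 fold change 1.18, SE 0.19, adjusted p 0.00038). Bnip3, a mitophagy receptor induced by hypoxia, was at 65.5, 64.1 and 49.2 CPM with SGC0649 and at 106, 128 and 96.7 CPM with SGC0946 (log2 fold change 0.89, SE 0.12, adjusted p 8.4e-05). Slc16a3, which exports lactate, was at 321, 278 and 233 CPM with SGC0649 and at 416, 479.8 and 430.2 CPM with SGC0946 (log2 fold change 0.67, SE 0.11, adjusted p 0.00037). In each of these genes the lowest inhibitor library was above the highest control library. The glucose transporter Slc2a1 (0.35, SE 0.08), the aldolase Aldoc (1.20, SE 0.23), the enolase Eno2 (0.82, SE 0.18) and the oxygen-regulated factor Hif1a (0.36, SE 0.08) also rose. Ldha, lactate dehydrogenase, at 2647 to 3096 CPM, rose by 0.17 and passed the test in 7 of 13 alternatives (adjusted p 0.050; 0.0057 to 0.15). The hypoxia response element core ACGTG, searched on both strands in the 250 bases before the RefSeq starts, was found for 16 of the 27 members with an entry (59.3%), for 25.4% of 9413 tested genes with an entry and for 18.5% of all 27025 RefSeq genes. Counted by promoter, the shares were 47.4% of 38 for the members and 21.7% of 12044 for tested genes. Hypoxia-response genes were put on this list by choice, so these shares describe the list. Their relation to the inhibitor's effect was not tested.

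Of 34 lipid genes 5 rose and 0 fell by edgeR's quasi-likelihood test, where 12.1% of all tested genes were higher and 15.7% lower, so the higher count is near the share of all genes; it was 3 to 12 over the alternatives. At an unadjusted p under 0.05 1 was lower, as with limma-voom, against 0 by DESeq2. Scd1, a stearoyl desaturase, stood at 85.6, 78.9 and 35.3 CPM with SGC0649 and at 175, 198 and 156 CPM with SGC0946 (log2 fold change 1.40, SE 0.25, adjusted p 0.00065), and Scd2, its much more abundant relative, was higher by 0.56, SE 0.12. Both had their lowest level in SGC0649 replicate 3. Fads2 (1.04, SE 0.26), another desaturase, Fdps (0.52, SE 0.14) and the cholesterol exporter Abca1 (0.59, SE 0.15) were the others; Fdps and Abca1 lost their calls in 2 and 1 of 13 alternatives (highest adjusted p 0.071 and 0.052). Vldlr, a receptor for lipoproteins, was at 6.77, 5.83 and 3.55 CPM with SGC0649 and at 23.03, 29.7 and 21.6 CPM with SGC0946 (log2 fold change 2.20, SE 0.22, adjusted p 9.2e-06). Lysosomal genes rose in 10 of 22 cases and fell in 3, with Ctsd (1.01, SE 0.12), Ctsl (1.42, SE 0.26) and Grn (0.78, SE 0.11) among the higher and Ctss (-0.63, SE 0.08) and Atp6v1h (-0.66, SE 0.09) among the lower; without SGC0649 replicate 3 the higher count was 5. The same shares over all genes, 12.1% and 15.7%, apply to the lists that follow. In the ATF4 response 9 of 30 genes fell, including the amino acid transporters Slc7a1 (-0.42, SE 0.07) and Slc38a1 (-0.25, SE 0.05), and 3 rose, including Ddit4 (0.64, SE 0.15), an inhibitor of mTORC1; only 2 fell without SGC0649 replicate 3. Of 24 endoplasmic reticulum stress genes 2 rose and 1 fell, each with a call that was lost in 3 or more alternatives. Of 17 heat shock and dissociation stress genes 7 fell, with Hspd1 (-0.48, SE 0.10), a mitochondrial chaperone, and Fosb (-1.55, SE 0.39), which lost its call without SGC0649 replicate 3 (adjusted p 0.053, the highest over the alternatives), and 0 rose by edgeR's quasi-likelihood test, with 1 higher at an unadjusted p under 0.05, by DESeq2 and by limma-voom, and 2 when only the 6 YFPpos libraries entered the fit.

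The metallothioneins, small proteins that bind zinc and copper, were among the largest increases. Mt1 stood at 19.6, 14.1 and 7.27 CPM with SGC0649 and at 77.2, 74.3 and 63.7 CPM with SGC0946 (log2 fold change 2.39, SE 0.37, adjusted p 0.00038). Mt2, beside it on chromosome 8, was at 8.46, 5.93 and 4.15 CPM with SGC0649 and at 41.5, 39.8 and 29.9 CPM with SGC0946 (log2 fold change 2.58, SE 0.42, adjusted p 0.00050). Mt3, named after its values were seen, was at 2.91, 2.34 and 2.21 CPM with SGC0649 and at 18.98, 20.3 and 19.9 CPM with SGC0946 (log2 fold change 2.98, SE 0.37, adjusted p 5.8e-05). All 3 genes were higher in every inhibitor library, and controls varied most in Mt1. The 250 bases before the RefSeq starts of Mt1 (chr8:94178839-94179088) and Mt2 (chr8:94172368-94172617, both on the plus strand, GRCm38.p6) are shown. Metal response elements near metallothionein genes are a known route of induction, but whether the matches in these windows act in these cells was not tested. Capitals mark the element's core TGCACNC or TGCGCNC on either strand.
Mt1: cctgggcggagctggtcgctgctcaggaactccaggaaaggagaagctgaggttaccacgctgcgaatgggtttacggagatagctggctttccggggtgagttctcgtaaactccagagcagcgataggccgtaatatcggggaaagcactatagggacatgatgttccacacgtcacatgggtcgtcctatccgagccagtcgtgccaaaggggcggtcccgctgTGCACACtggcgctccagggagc
Mt2: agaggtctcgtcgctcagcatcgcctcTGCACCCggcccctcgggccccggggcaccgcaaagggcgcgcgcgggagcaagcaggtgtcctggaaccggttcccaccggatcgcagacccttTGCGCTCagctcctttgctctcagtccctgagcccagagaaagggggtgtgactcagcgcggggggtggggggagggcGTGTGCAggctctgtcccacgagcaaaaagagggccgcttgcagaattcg
A match began 23 bases before the start of Mt1, and in Mt2 matches began 223, 128 and 50 bases before it. The core was found for 2 of these 3 metallothionein genes, for 33.9% of 9413 tested genes with an entry and for 23.8% of all 27025 RefSeq genes, or in 21.4% of the 32851 promoters.

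Few genes of proliferation were called. Of 41 DNA replication genes 1 was higher and 8 lower, a lower count that ranged from 2 to 11 over the alternatives, and of 40 mitosis genes 2 were higher and 2 lower, each with a call lost in 5 or more alternatives. Both shares together lay below the 27.7% over all tested genes. Mki67, which marks dividing cells, had -0.07 (95% interval -0.19 to 0.05), and Top2a, the topoisomerase of replicating DNA, -0.12 (-0.25 to 0.01). Among 14 tested D cyclins, their kinases and inhibitors 4 rose, including the inhibitors Cdkn1b (0.53, SE 0.10) and Cdkn2d (0.53, SE 0.12), and Cdkn2c (-0.44, SE 0.12) and Cdk4 (-0.25, SE 0.07) fell; these falls lost their calls in 1 and 3 of 13 alternatives (highest adjusted p 0.054 and 0.064). Of 27 p53 targets 9 fell, among them Plk2 (-1.27, SE 0.16), a kinase of the stress response, and Aen (-0.65, SE 0.11), an apoptotic nuclease, and 2 rose, Pmaip1 (1.06, SE 0.15), which encodes the death protein NOXA, and Btg2. In the BCL2 family 2 of 16 genes rose and 2 fell, near the 12.1% and 15.7% over all tested genes. There the survival gene Bcl2l1, at 80.97, 96.7 and 130.1 CPM with SGC0649 and at 60.3, 57.8 and 63.9 CPM with SGC0946, fell (log2 fold change -0.76, SE 0.13, adjusted p 0.00056). Bax (-0.39, SE 0.10) fell and Pmaip1 and Bmf (1.87, SE 0.50) rose in that family; Bax and Bmf lost their calls without SGC0649 replicate 3 (adjusted p 0.061 and 0.060, the highest over the alternatives).

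Genes of the chromatin machinery around DOT1L fell more often than they rose. Of 44 histone methyltransferases and demethylases 13 fell and 0 rose by edgeR's quasi-likelihood test, against 15.7% lower and 12.1% higher over all genes. The lower count ranged from 6 without SGC0649 replicate 3 to 17 with limma-voom, and 2 genes were higher at an unadjusted p under 0.05, 2 by DESeq2, 0 by limma-voom and 2 with only the 6 YFPpos libraries in the fit. By mean level in YFPneg cells, lower calls made up 28.4% of the highest quintile of tested genes and 0.851% of the lowest. Neither this list nor that of DOT1L partners below was set against genes of like level. Kdm6b, which removes methyl groups from lysine 27 of histone H3, stood at 67.3, 74.9 and 94.7 CPM with SGC0649 and at 39.3, 41.4 and 41.8 CPM with SGC0946 (log2 fold change -0.95, SE 0.11, adjusted p 1.5e-05). Smyd5 (-0.65, SE 0.11) and Kdm1a (-0.29, SE 0.05), which encodes the demethylase LSD1, followed. Of 20 genes of DOT1L and its partners 8 were lower and 2 higher. Bcor, a corepressor that binds the DOT1L partner MLLT3, was at 136, 139 and 146 CPM with SGC0649 and at 106, 106 and 99.3 CPM with SGC0946 (log2 fold change -0.44, SE 0.05, adjusted p 2.8e-05). Mllt3 itself was at 136, 146 and 144 CPM with SGC0649 and at 108, 110.0 and 104 CPM with SGC0946 (log2 fold change -0.40, SE 0.06, adjusted p 0.00011). The elongation factor gene Ell2 rose (0.75, SE 0.11) and Aff3 fell (-0.37, SE 0.07). Of 20 genes that depend on DOT1L in MLL-rearranged leukaemia only 11 had enough counts to be tested, and 1 passed: Flt3, a receptor kinase of blood progenitors, at 0 to 0.217 CPM with SGC0649 and 0.914 to 1.07 CPM with SGC0946, in the direction opposite to its dependence. Its call was lost in 2 of 13 alternatives (highest adjusted p 0.085).

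Some S100, annexin and Ly6 genes, known from effector and memory T cells, were picked after their values were seen because they were higher, so their direction is no finding about their families. S100a6, a calcium-binding protein, stood at 33.8, 24.8 and 24.2 CPM with SGC0649 and at 116, 131 and 113 CPM with SGC0946 (log2 fold change 2.12, SE 0.15, adjusted p 1.4e-07). Anxa1, which binds phospholipids, was at 4.56, 2.34 and 2.03 CPM with SGC0649 and at 18.98, 25.1 and 16.8 CPM with SGC0946 (log2 fold change 2.76, SE 0.33, adjusted p 2.6e-05). S100a10 (0.71, SE 0.07), S100a11 (0.91, SE 0.15), S100a4 (2.32, SE 0.45) and Anxa2 (0.75, SE 0.13) were also higher. Of the Ly6 surface antigens, Ly6c2 (1.72, SE 0.23), Ly6c1 (1.16, SE 0.21) and Ly6i (1.07, SE 0.19) rose with Ly6g, best known from neutrophils, at 42.4, 18.1 and 3.72 CPM with SGC0649 and at 128, 138 and 94.1 CPM with SGC0946 (log2 fold change 2.48, SE 0.54, adjusted p 0.0036). The controls of Ly6g spread widely, yet none reached an inhibitor library; these genes lie in 1 cluster on chromosome 15 and are similar in sequence, so that reads may be split between them. Integrin chains, from a list, rose in 7 of 15 cases and fell in 2, against 12.1% and 15.7% of all tested genes. Itga3, a laminin receptor chain, was at 24.9, 20.98 and 14.4 CPM with SGC0649 and at 58.8, 57.7 and 56.4 CPM with SGC0946 (log2 fold change 1.52, SE 0.16, adjusted p 8.1e-06), Itgb7 (0.63, SE 0.10) and Itga4 (0.52, SE 0.09), which pair for homing to the gut, rose, and Itga6 (-0.52, SE 0.08) fell.

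Other genes with the largest changes fell outside these lists. Where the mean log2 CPM reached 3 and the groups did not overlap, the 12 largest increases ranged from 2.32 to 2.78 on the log2 scale. Beside those above they were Gpnmb, Itga7, Cyp2s1, Myo1f, Ggt1, Emp1, Filip1 and Serpinf1. Gpnmb, a transmembrane glycoprotein, stood at 7.42, 3.68 and 1.82 CPM with SGC0649 and at 24.2, 37.8 and 26.5 CPM with SGC0946 (log2 fold change 2.77, SE 0.33, adjusted p 2.1e-05). Emp1, an epithelial membrane protein, was at 42.2, 24.6 and 20.7 CPM with SGC0649 and at 147, 175 and 145 CPM with SGC0946 (log2 fold change 2.42, SE 0.21, adjusted p 1.1e-06). Myo1f, an unconventional myosin of leukocytes, was at 12.8, 6.84 and 6.36 CPM with SGC0649 and at 50.8, 50.7 and 41.3 CPM with SGC0946 (log2 fold change 2.46, SE 0.28, adjusted p 1.4e-05). All of these were at least 3 times as high in the lowest inhibitor library as in the highest control library. Itga7 (2.48, SE 0.31) is an integrin chain of muscle, Cyp2s1 (2.46, SE 0.22) a cytochrome P450 and Ggt1 (2.43, SE 0.37) the transferase that breaks down extracellular glutathione. Filip1 (2.39, SE 0.33) interacts with filamin A, and Serpinf1 (2.32, SE 0.30) encodes a secreted serpin. The 12 largest decreases ranged from -1.54 to -3.11. Lad1, the gene of ladinin, an anchoring filament protein, stood at 12.5, 18.3 and 36.3 CPM with SGC0649 and at 2.49, 1.87 and 3.31 CPM with SGC0946 and was 8.62-fold lower (log2 fold change -3.11, SE 0.38, adjusted p 3.2e-05). Pla2g4f, a cytosolic phospholipase, was at 19.2, 22.8 and 28.5 CPM with SGC0649 and at 4.49, 5.09 and 5.49 CPM with SGC0946 (log2 fold change -2.22, SE 0.19, adjusted p 8.3e-07). Lrig1, which restrains growth factor receptors, was at 56.8, 66.2 and 82.2 CPM with SGC0649 and at 22.5, 17.6 and 21.4 CPM with SGC0946 (log2 fold change -1.74, SE 0.12, adjusted p 1.4e-07). No group overlapped in these genes. Scin (-2.09, SE 0.40), an actin-severing protein, Cnksr3 (-1.75, SE 0.22), a scaffold of Ras signalling, Akr1c13 (-1.68, SE 0.17), an aldo-keto reductase, Dapl1 (-1.57, SE 0.34) and Samd3 (-1.54, SE 0.19) completed the 12 together with Foxp3, Eomes, Xcl1 and Crtam.

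Some called genes had 3 counts or fewer over the 3 control libraries. There were 9 of them, 6 of which are named here. With so few counts in the controls they could enter the test only through another group in which they were higher, so their number and direction are a description. The counting intervals below use counts summed over the 3 libraries of a group and leave out the spread between libraries. Sult4a1, a sulfotransferase known from brain, had 3 counts with SGC0649 and 54 with SGC0946, a ratio of 15.0 (95% counting interval 4.88 to 75.2). Pir, a nuclear protein with a cupin fold, had 3 and 49 counts (13.7; 4.41 to 68.5), Dnajc6, the clathrin-uncoating cofactor auxilin, 3 and 42 (11.7; 3.74 to 59.0), Sept4, a septin, 3 and 28 (7.80; 2.41 to 40.1) and Cldn10, a tight junction protein, 3 and 26 (7.24; 2.22 to 37.4). Gm10800, a predicted gene, had 0 and 205 counts, at least 57.1-fold higher when the control group is set to the floor of 3 counts, but none of the 205 were in SGC0946 replicate 3. Of these 6 genes, Dnajc6 kept its call in all of its alternatives, and the highest adjusted p of the others was 0.080 for Sept4, 0.071 for Sult4a1, 0.054 for Pir, 0.15 for Cldn10 and 0.21 for Gm10800. With SGC0946 the genes other than Gm10800 lay between 0.159 and 0.755 CPM.

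More genes were detected with the inhibitor. After every YFPpos library was thinned to the smallest total, 11517 ± 14.01 genes had at least 10 counts with SGC0649 and 11897 ± 29.5 with SGC0946 (SD, n = 3 each), a difference of 380. The groups did not overlap, and an exact two-sided permutation test gave p = 0.1, the smallest that 3 against 3 libraries allow. Increases took a larger share than decreases among low genes, and decreases a larger share among high genes. When tested genes were ranked by their mean level in the YFPneg libraries, which do not enter this comparison, 16.5% of the lowest quintile (0 to 3.69 CPM) were higher and 0.851% lower, with 384 of the 407 increases at least 2-fold. In the highest quintile (105 to 7325 CPM) 11.1% were higher and 28.4% lower, with 14 of the 273 increases at least 2-fold. The median log2 fold change went from 0.52 in the lowest quintile to -0.08 in the highest. A gene of the lowest quintile could enter the test only if some group reached the count filter, and a change must be larger to pass there, since the median SE was 0.53 in the lowest and 0.066 in the highest quintile. With a filter set on the 8 naive and YFPneg libraries alone, 526 genes were at least 2-fold higher and 61 lower. By gene span, from the annotation, decreases rose from 9.21% of the shortest quintile (median 4.37 kb) to 19.6% of the longest (median 110.3 kb), while increases lay between 10.9% and 14.3%. The relation of span to level and to exon length was not measured, and their parts were not separated.

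**Figure D4:**
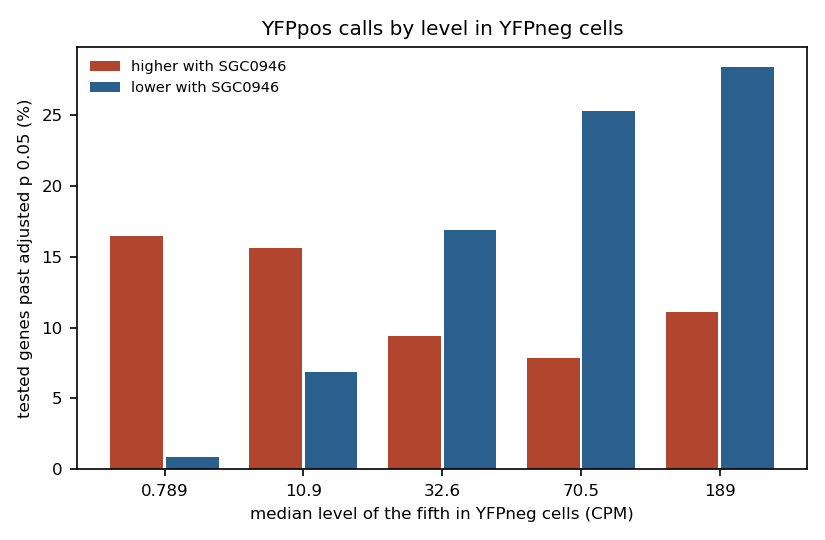
Percent of tested genes called higher (red) and lower (blue) with SGC0946 in YFPpos cells (vertical axis), by quintiles of the mean level in YFPneg libraries, whose median in CPM is given below each pair of bars. Higher calls make up 16.5% of the lowest and 11.1% of the highest quintile, lower calls 0.851% and 28.4%.

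The same compound in YFPneg cells of these cultures gave a smaller set of calls, mostly in the same directions where a gene was called in both. There 1065 genes (8.63%) passed, 616 higher and 449 lower. Of the 1490 genes higher in producers 431 were also called higher in YFPneg cells (28.9% of the former and 70.0% of the latter), and of the 1934 lower genes 267 were also called lower (13.8% and 59.5%), with 5 genes called in opposite directions. Calls in YFPneg cells rest on 2 control libraries and numbered 335 without YFPneg SGC0649 replicate 2. Among genes named above, the log2 fold change was 2.42 in YFPpos and 2.24 in YFPneg cells for Emp1, 2.78 and 2.07 for Ccl5, 2.18 and 1.74 for Maf, -1.48 and -1.43 for Lrrc32, and 2.01 and 2.12 for Entpd1. Their differences between the sorts did not pass the test, which does not show that the effects were equal. Of the glycolysis and hypoxia list 15 of 29 were called in YFPneg cells, all higher. The replication and mitosis lists were lower in YFPneg cells in 18 of 41 and 12 of 40 genes.

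The difference between both effects was tested as an interaction in the same model, and 142 genes (1.15%) passed, of which 136 were also called in producers. Of these 107 were lower and 29 higher with SGC0946 in YFPpos cells. Tcf7 had -0.78 in YFPpos and 0.14 in YFPneg cells (difference -0.92, SE 0.10, adjusted p 0.00075). Nr4a1 had -0.98 and -0.13 (difference -0.85, SE 0.10, adjusted p 0.00075), and Il6st -0.82 and -0.13 (-0.69, SE 0.08, adjusted p 0.00075). Dgkd (-0.61), a diacylglycerol kinase, Gramd1b (-0.78), a sterol transporter, and Ms4a4c (-1.07), a membrane protein of the MS4A family, were the other falls with the smallest p. On the higher side Cd74 had 0.93 and -0.14 (difference 1.07, SE 0.18, adjusted p 0.0068), and Gbp6 1.11 and 0.15 (0.95, SE 0.13, adjusted p 0.0022). Gbp4 (0.71), Apol7e (1.47), an apolipoprotein L, Kctd12 (1.02), an auxiliary subunit of GABA-B receptors, and Calm2 (0.45), a calmodulin gene, followed. The interaction count ranged from 61 to 241 when single libraries were left out and was 301 by DESeq2, and the higher share of its calls was 22.5% with TMM and 32.8% with DESeq2 size factors.

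**Figure D5:**
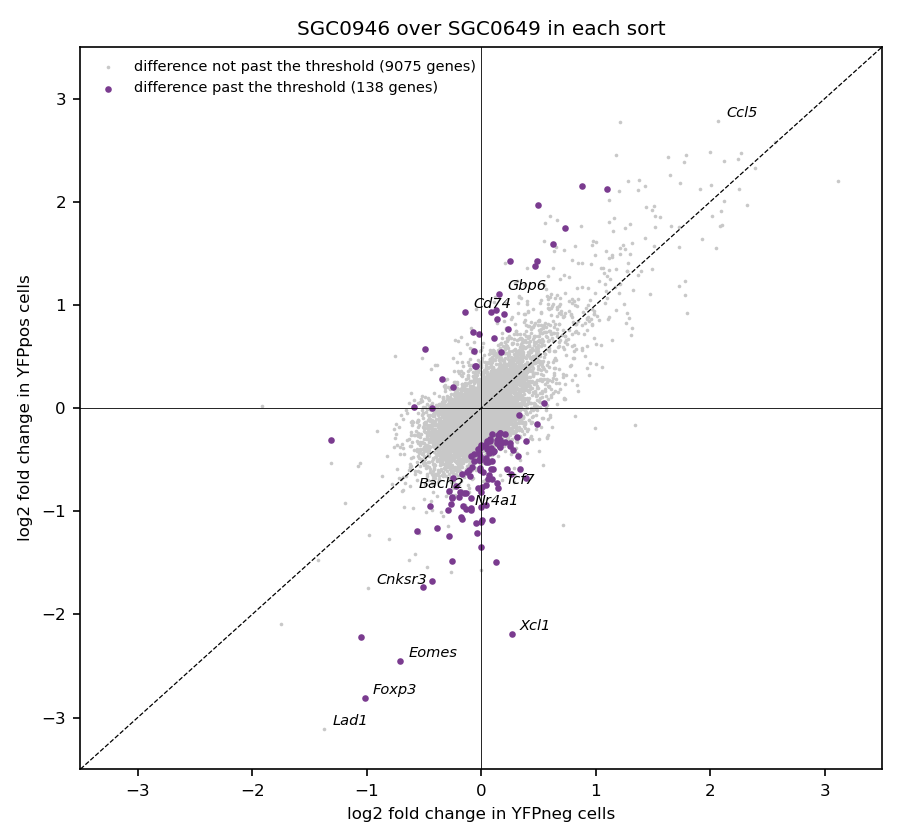
Log2 fold change of SGC0946 over SGC0649 in YFPpos cells (vertical axis) against that in YFPneg cells (horizontal axis) for the 9213 genes whose mean log2 CPM reached 3. Purple points are the 138 genes whose difference between sorts passed the test, with Tcf7, Nr4a1, Bach2 and Xcl1 lower and Gbp6 and Cd74 higher in YFPpos than in YFPneg cells; the dashed line marks equal effects.

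The 3 control libraries were not equally far from the inhibitor group. Of the 605 genes called at least 2-fold higher, SGC0649 replicate 1 was the control nearest to the inhibitor mean in 67.8% and replicate 3 the farthest in 65.6%, and of the 67 called at least 2-fold lower these shares were 86.6% and 82.1%. Over the 8919 genes that were not called they were 47.6% and 50.7%. In the 12 largest increases replicate 1 was the nearest and replicate 3 the farthest each time. For Ly6g, Scd1, Prdm1 and Foxp3 this shows as control values that lie apart in the same order of libraries, without reaching the inhibitor group. The cause was not tested.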

How the data were processed

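The authors deposited raw counts of reads per protein-coding gene for 14 libraries, which the submitters' processing notes tie to featureCounts, the GRCm38 build, edgeR and limma, without versions. The aligner and the strand setting of the counting are not named there. From these counts, genes with too few counts were removed by edgeR's filterByExpr (minimum count 10, by group), TMM factors were computed, and 1 quasi-likelihood model with a coefficient per group was fitted to all 14 libraries (R 4.3.3, edgeR 4.0.16). Contrasts were SGC0946 minus SGC0649 in YFPpos cells, the same in YFPneg cells, and their difference. P-values were adjusted by Benjamini-Hochberg over 12343 genes with a threshold of 0.05. CPM values are counts per 1e+06 counts of a library, with library totals scaled by the TMM factors. The test was checked on simulated counts.

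Genes named are 11 regulators, the 12 largest increases and 12 largest decreases whose mean log2 CPM reached 3 and whose groups did not overlap, from each of 43 gene lists at most 4 members by smallest p and all called members of lists with 5 or fewer, up to 6 genes near silent in 1 group, and 6 genes in each direction with the smallest p of the difference between sorts. Some genes that these rules cover are not reported here, though counts over a list include them. Members and lists were chosen with earlier results of these data known. Some genes were named after their values were seen, among them the S100, annexin and Ly6c genes, Mt3, Ciita, Pdcd1, Havcr2, Lag3, Irf8, Samd9l, Iigp1, Ifit2, Gzmb, Il2, Ccr1, Ccr3, Cxcr3, Cxcr6, Ctsl, Slc2a1, Hif1a, Ldha, Aldoc, Eno2, Mki67, Top2a, Hlx, Il12rb1, Tox, Ctla4, Il7r, S1pr1, Klf2, Lef1, Isg15, Klra3, Klrk1, Klrc2 and Il13.

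Alternatives were DESeq2 1.42.0, limma-voom (limma 3.58.1), DESeq2 size factors, no filter, fewer libraries in the fit, a replicate block, each library left out, and, chosen after seeing the data, a filter from the 8 naive and YFPneg libraries. Promoter sequences came from RefSeq (GRCm38.p6), and gene spans from the GRCm38 annotation.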

Additional observations from a re-analysis of the deposited data

Results flagged for a closer look

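The effect of SGC0946 differed between YFPpos and YFPneg cells for 44 of the 244 named genes by the interaction term of edgeR's quasi-likelihood fit. Their p-values, adjusted over all tested genes, were under the threshold, as were those of 142 tested genes in all (1.15%). Some named genes were picked by the smallest p of this same interaction, and others for the size of their change in YFPpos cells. The share of named genes that passed is thus partly set by their choice and is no finding. The values below are the log2 fold change in YFPpos cells less the one in YFPneg cells. Of the 142 genes 110 had a lower value in YFPpos cells. Of the 44 named genes 35 had a lower value. Among regulators of transcription they were Foxp3 (-1.79), Eomes (-1.75), Tox (-1.18), Tcf7 (-0.92), Bach2 (-0.81), Foxp1 (-0.67), Nr4a1 (-0.85), Nr4a3 (-0.96), Egr1 (-0.59), Irf8 (-0.45), Stat4 (-0.79), Stat5b (-0.35) and Smad3 (-0.70). Among elongation and chromatin factors they were Aff3 (-0.61), Mllt3 (-0.49) and Kdm6b (-0.79). Among receptors, ligands and secreted proteins they were Xcl1 (-2.46), Cd226 (-1.62), Tnfsf8 (-1.34), Tnfsf14 (-0.98), Cd69 (-1.10), Ms4a4c (-1.07), Lrig1 (-1.23), Ccr7 (-0.75), Il6st (-0.69), Cd6 (-0.42) and Cd5 (-0.37), and among enzymes and other intracellular proteins Akr1c13 (-1.25), Pla2g4f (-1.16), Samd9l (-0.81), Gramd1b (-0.78), Dgkd (-0.61), Atp6v1h (-0.56), Pim2 (-0.43) and Fyn (-0.38).

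For the remaining 9 genes the value was higher in YFPpos cells. These were H2-Eb1 (3.26) and Cd74 (1.07) of the class II pathway, Gbp4 (0.71) and Gbp6 (0.95) of the interferon response, the receptors Cxcr4 (1.02) and S1pr1 (0.82), and Apol7e (1.47), Kctd12 (1.02) and Calm2 (0.45). H2-Eb1 was at 2.02 CPM with SGC0649 and 1.05 CPM with SGC0946 in YFPneg cells, where its log2 fold change was -0.92. The YFPneg effect had 2 control libraries. The sorts also differ in Ifng level by design, and the cause of these differences was not tested.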

How the results depend on the processing

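For the YFPpos comparison the count of 3424 genes was 3395 by DESeq2, 4058 by limma-voom, 3038 without a filter, 3265 with the filter from the 8 naive and YFPneg libraries, which was chosen after seeing the data, and 4751 with only the 6 YFPpos libraries, where 2584 were higher. Leaving out single libraries gave 1886 to 3449 genes, 867 to 1489 higher, 1019 to 1960 lower, 346 to 587 at least 2-fold higher and 46 to 92 at least 2-fold lower, the lowest each without SGC0649 replicate 3 and the highest without SGC0649 replicate 1. The 1065 calls in YFPneg cells became 1615 by DESeq2 and 616 with only the 11 cultured libraries, and 335 to 1520 when single libraries were left out. The 142 calls of the difference became 301 by DESeq2, 56 with the 11 cultured libraries, and 61 to 241. With a replicate block by the number in the titles they were 3516, 1272 and 129. The labels do not say that equal numbers mark shared animals, so the numbers were not taken as pairs. Same-numbered control and inhibitor libraries had correlations of deviations of -0.118, 0.236 and 0.418, and not every library correlated best with its own number. Deviations from the mean of the same 3 libraries depend on each other, so these correlations cannot decide whether the numbers mark pairs. Of 215 named genes that were called, 172 kept the call in every alternative, and no named gene changed sign with a call. The causes were not tested. With 3 libraries per group and totals of at least 20.7 (in units of 1e+06 counts), changes of genes under 1 CPM rest on few counts.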
